A study of Mus musculus with 11 samples.

Results

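Astrocytes of the cortex (CX) were compared with those of the 3 other brain regions in the series, taking 2 of the 11 libraries, CX_1 and CX_2, as the cortex group and pooling the 3 olfactory bulb (OB), 3 hippocampus (HC) and 3 brainstem (BS) libraries as the other group. The libraries were assigned by the region in their labels, and every gene measured was a member of the comparison. All 4 regions came from mice of the same kind: untreated 16-week-old Aldh1l1-eGFP animals on a C57BL/6 background, in which a bacterial artificial chromosome places green fluorescent protein under control of the Aldh1l1 gene, so that the sorted cells are those in which that promoter was active. Male and female mice were used in the study, and the labels do not say which animals, or how many, contributed to each library. The p-values therefore measure only the spread between these samples. That spread may be technical, and because the 3 other regions were pooled it also holds the differences among them. The eGFP+ cells had been collected by fluorescence-activated cell sorting (FACS), and each deposited value is a gene's read count divided by the size factor of its library. With 2 against 9 samples, an exact permutation test of a single gene over the 55 choices of 2 samples cannot give a p below 0.0182, and the calls below rest on limma fitted across all genes.

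Astrocytes clear glutamate and potassium from the space around synapses, couple to each other through gap junctions, sense transmitters through receptors of their own, and supply neurons with cholesterol. Cortical astrocytes arise from radial glia of the dorsal telencephalon, whereas brainstem astrocytes come from progenitors of the midbrain and hindbrain, and cells of each region keep transcription factors of their origin. In sorted bulk samples a difference in a gene's level can come from fewer cells of a type or from less RNA per cell, and these cannot be told apart.

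The 20 astrocyte markers were abundant in the cortex libraries, as their label says. The summed values were 809600 in CX_1 and 720600 in CX_2, against 189500 to 592000 in the other 9 libraries, and 18 of the 20 had a positive difference, although none passed the test (3 higher and 1 lower at an unadjusted limma p under 0.05, and 1 lower by DESeq2 and none by edgeR). Slc1a2, the main astrocyte glutamate transporter, reached 541892 and 472464 in the cortex against 61764 to 389770 elsewhere and made up most of the cortex sums. Without it the list summed to 267700 and 248100 against 127700 to 263500, so that BS_2 lay above CX_2. Sox9, an astrocyte transcription factor, lay at 2632 and 2695, above the highest other library at 2441. Gfap, the intermediate filament of reactive and white matter astrocytes, was at 890 and 1309 in the cortex against 1160 to 4028, and CX_2 overlapped the BS.

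Markers of other cells were also present (plot of summed marker lists). The 20 neuron markers summed to 7618 and 9416 in the cortex against 3637 to 8947 elsewhere, so that CX_2 held the highest sum of all 11 libraries. Without Camk2a, the largest member, the list summed to 3034 and 3848 against 1790 to 4769. Both cortex libraries then lay inside the range of the others, and BS_3 was highest. Choroid plexus markers summed to 8624 and 3490, whereas those of the OB lay between 2552 and 3097, those of the HC between 108000 and 223900 and those of the BS between 78450 and 375200. Ependymal markers were lowest in the cortex, at 94.2 and 120, while the OB had 146 to 205, the HC 350 to 473 and the BS 411 to 1361. Without the called members Dnah11 and Hydin they summed to 93.0 and 112 against 74.9 to 1095, and OB_3 was lowest. The 16 microglia markers summed to 3432 and 4232, inside the range of 2429 to 8395 of the other libraries.

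**Figure D1:**
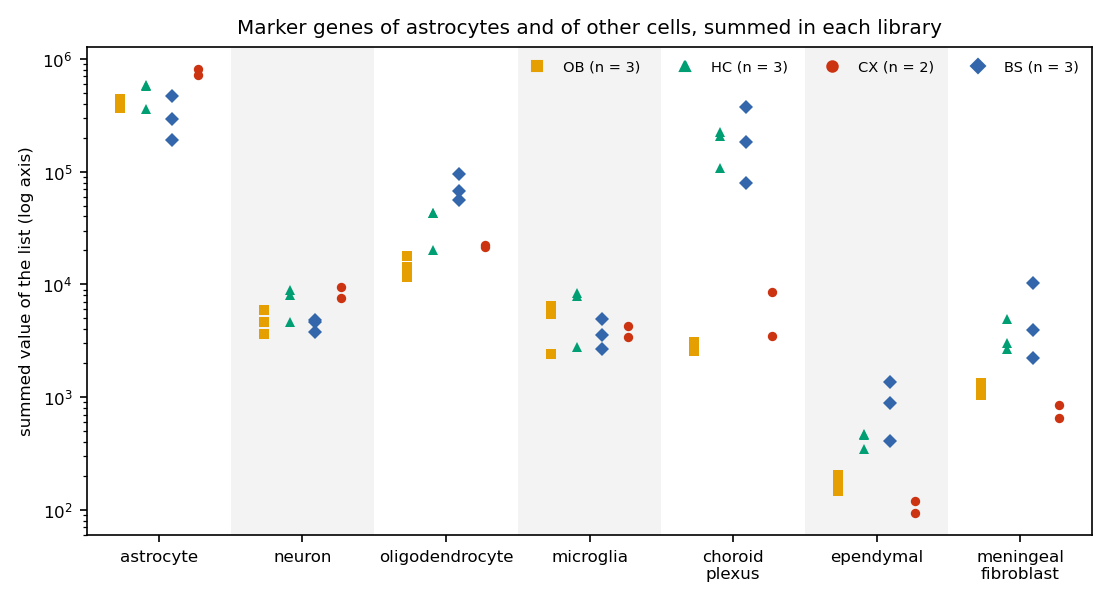
Summed value of the marker genes of 7 cell types (log axis) in each library, with OB as squares, HC as triangles, BS as diamonds and CX as circles. The astrocyte sum was highest and the ependymal and meningeal fibroblast sums lowest in the 2 CX libraries, whereas the choroid plexus sum of CX lay between those of OB and of HC and BS.

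The cortex libraries held 5596128 and 4306813 recovered reads, within the range of 2830746 to 14151670 over all libraries, and 3 reads were worth a value of 3.77 in CX_1 and 4.60 in CX_2. Rn45s, the ribosomal RNA precursor, took 20.7% and 19.0% of the cortex reads and 18.0% to 25.6% of the BS reads, but 0.966% to 2.93% of the OB and HC reads. Reads of Y-linked genes were found in 3 libraries (OB_1, HC_1 and BS_3) and in neither cortex library. On the log2 scale the cortex replicates correlated with r = 0.937 across genes, which are not independent replicates, and their counts differed by more than sampling noise.

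Of 13875 genes tested, 384 were called differentially expressed genes (DEGs) in the cortex, which is 2.77% of those tested. A DEG was required to pass limma at an unadjusted p under 0.01, to differ by more than 1.5-fold and, in 2 or more libraries of some region, to exceed a value of 5. Of these, 142 were higher (1.02% of the genes tested) and 242 lower (1.74%), so that 37.0% of the DEGs were higher. Where values were rescaled to the reads left after taking out Rn45s, 440 DEGs were called and 13.9% of them were higher, with the median of all genes shifted by -0.19 on the log2 scale; with the relative log expression factors of edgeR, 306 were called and 48.0% were higher. At an unadjusted p under 0.01, 397 of the 13875 genes passed. Of the 13755 genes that met the value rule, 137.55 would pass on average if no gene differed between the groups. The tests are not independent of each other, so how far that number could vary is not known. At a Benjamini-Hochberg adjusted p under 0.05 limma left 2 genes (0.0144%), both lower. DESeq2 placed 123 genes under that threshold. With a mean for each region in place of the pool, limma left 574 under it. With CX_1 left out 138 DEGs were called and with CX_2 left out 237, so the counts rested on both cortex libraries.

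Most DEGs separated the cortex from every other library. Both cortex values lay above all 9 others in 137 of the 142 higher DEGs, where 5.02% of all genes tested (696) did so, and below all 9 in 202 of the 242 lower DEGs, where 3.15% of all genes tested (437) did so. The DEG rule itself favours such genes, so these counts describe the DEGs and test nothing. Their sizes differed by direction: the median difference was 1.07 on the log2 scale for the higher DEGs, of which 26 exceeded 4-fold. Among the lower DEGs, 52 had 3 or fewer reads in the cortex, 21 of them none, and the other 190 had a median difference of -1.64. The higher DEGs were also the more abundant, with a median value of 376 over all libraries against 73.8 for the lower DEGs.

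**Figure D2:**
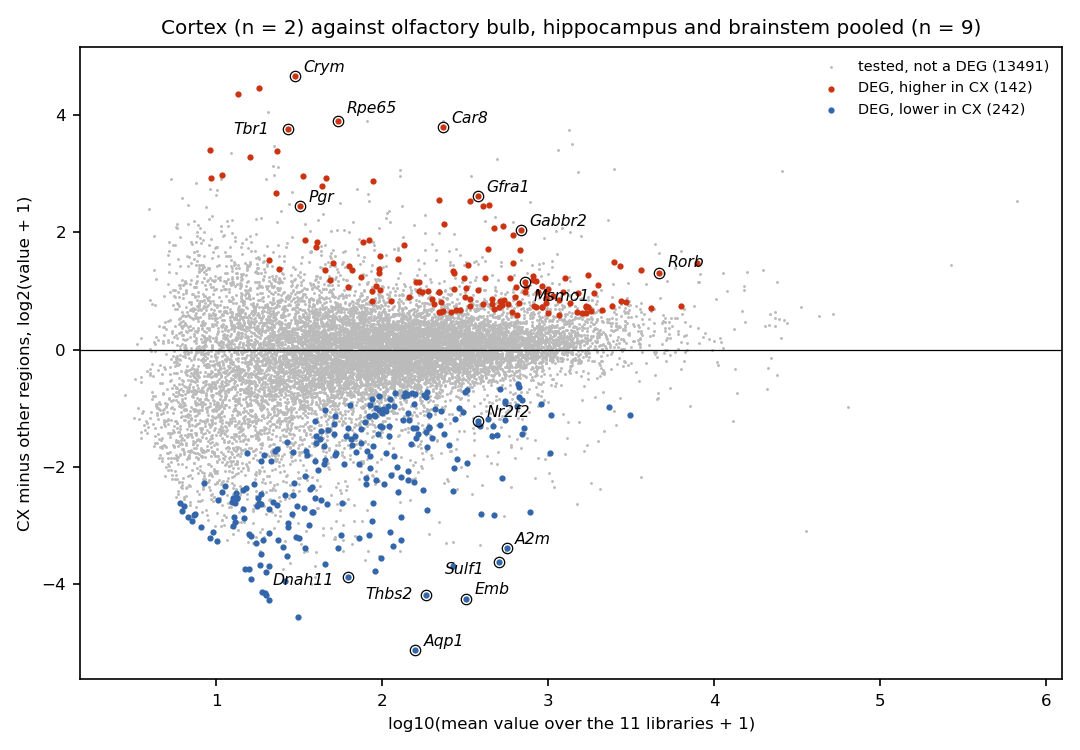
Difference between cortex and the other regions on the log2(value + 1) scale against the mean value of each gene on a log10 scale, for 13875 genes tested. Red points are the 142 DEGs higher in the cortex, blue points the 242 lower, and circled genes are named in the text; Aqp1 lies lowest, at -5.13, and Crym highest among the named genes, at 4.67.

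Among the genes higher in the cortex, those with the largest differences were low in abundance elsewhere. Crym, which encodes a thyroid hormone binding protein of the cytosol, had values of 96.7 and 150 in the cortex against a median of 6.32 and a highest value of 26.4 in the other libraries, with none in the 3 BS libraries (log2 difference 4.67, SE 1.27, limma adjusted p = 0.2497). Rpe65, the retinoid isomerase of the visual cycle, had 209 in each cortex library against 0 to 40.4 elsewhere (3.90, SE 1.05, limma adjusted p = 0.2497, DESeq2 adjusted p = 0.000983). Car8, a carbonic anhydrase-related protein without catalytic activity that binds an inositol trisphosphate receptor, was the most abundant of this set, at 949 and 894 against 22.1 to 156 (3.79, SE 0.59, limma adjusted p = 0.0929, DESeq2 adjusted p = 2.23e-06). None of the 3 genes overlapped between the cortex and the other libraries.

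Tbr1, a T-box transcription factor of cortical glutamatergic neurons, had 94.2 and 103 in the cortex against a median of 6.01 and a highest value of 25.7 (3.76, SE 1.02, limma adjusted p = 0.2497). Its level stood beside the neuron marker sums given above, and the part of neuronal RNA in it was not tested. Slc17a7 and Neurod6, which also mark excitatory neurons of the forebrain, did not separate the cortex: Slc17a7 lay at 143 and 218 against 107 to 219 in the HC, and Neurod6 at 5.03 and 16.9 against 29.7 to 75.8 in the HC. Slc17a6, the vesicular glutamate transporter of many subcortical neurons, was lower in the cortex, at 2.51 and 4.60 against 5.43 to 65.2 (-2.66, SE 0.83, limma adjusted p = 0.3378).

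Gfra1, the receptor for glial cell line-derived neurotrophic factor, was higher at 1136 and 1124 against 66.2 to 295 (2.62, SE 0.52, limma adjusted p = 0.1361, DESeq2 adjusted p = 0.000379). Its co-receptor Ret had no read in either cortex library and a median of 15 in the others; the cortex value was at least 8.11-fold lower, with the floor of 3 reads taken over both cortex libraries. Ret lies outside the rule for named genes and was chosen after its values were seen. Lypd6, a lymphocyte antigen 6 family protein that binds nicotinic receptors and Wnt co-receptors, reached 1104 and 1257 against 58.1 to 532 (2.47, SE 0.73). Lypd6b, its paralogue, was also a DEG, at 37.7 and 26.1 against 0 to 7.90, and was likewise chosen after its values were seen.

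Ephb1, an ephrin receptor tyrosine kinase, had 666 and 492 in the cortex against a highest value of 333 in the HC, and 94.6 or less in the OB and BS (2.56, SE 0.81). Scara3, a scavenger receptor induced by oxidative stress, had 881 and 839 against 584 or less (2.53, SE 0.84). Both lost the call under edgeR, and against the HC alone neither passed, with differences of 0.97 and 0.87. Of the 25 alternatives, Ephb1 lost the call in 13 and Scara3 in 18, with DESeq2 among those of Scara3.

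Lama3, a laminin alpha chain of basement membranes, was at 275 and 241 against 4.21 to 114. Nupr1, a stress-induced nuclear protein, was at 148 and 133 against 2.003 to 41.3, and Pamr1, a secreted peptidase-domain protein, at 129 and 115 against 4.34 to 85.1. Rasd2, a small GTPase best known from the striatum, had 77.9 and 143 against 3.15 to 28.1, and Myom3, a sarcomere protein, 64.1 and 88.9 against 0 to 24.7. Erv3, an endogenous retroviral gene, completed the set at 72.9 and 59.8 against 4.01 to 27.3. In each of these 6 genes both cortex libraries stood above all others, and Pamr1 lost the call under edgeR. Of the 14 leading higher genes, 3 kept the call without CX_1 (log2 differences of 2.34 to 4.99 over the 14) and 2 without CX_2 (2.38 to 4.36).

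**Figure D3:**
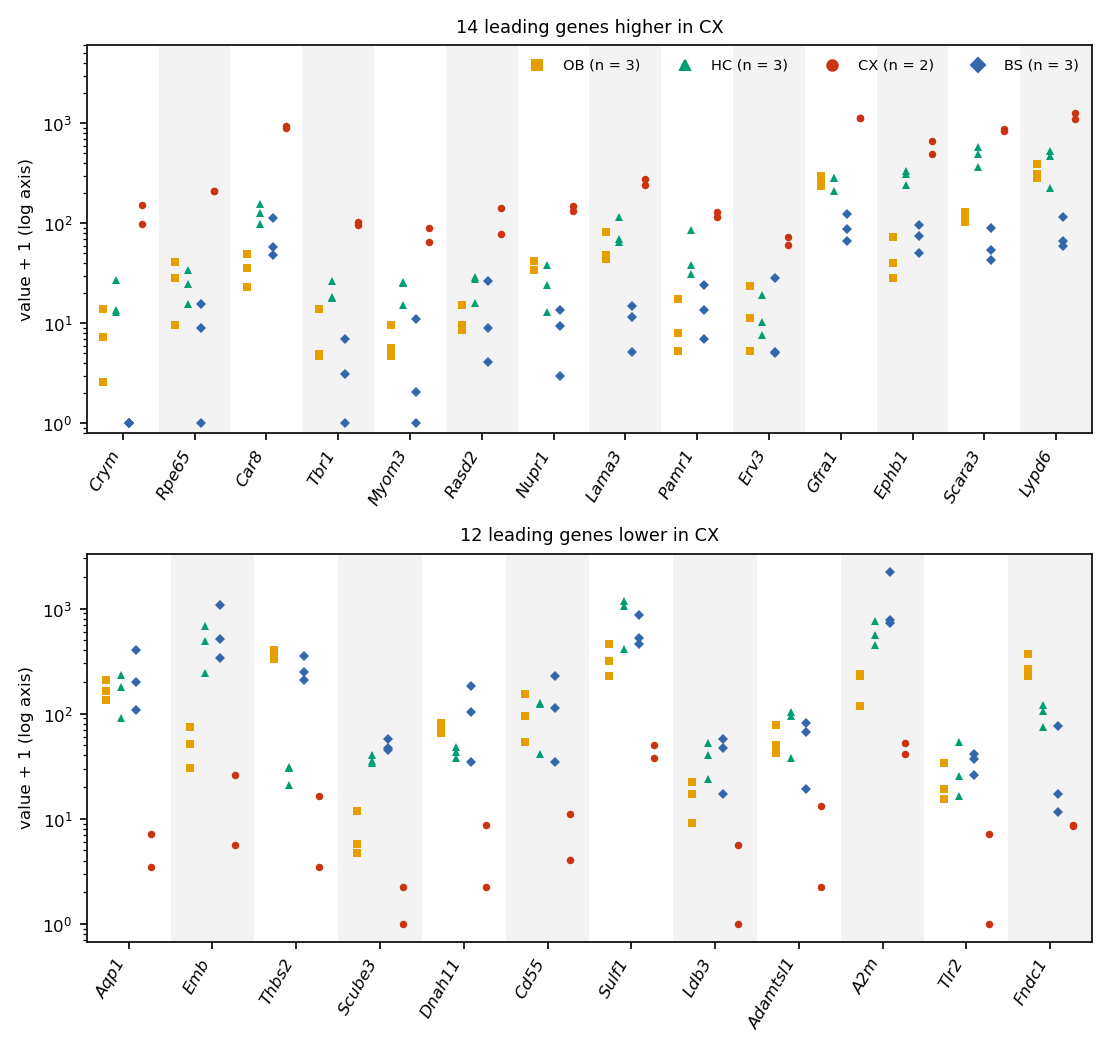
Values (plus 1, log axis) of the 14 leading genes higher in CX (top) and the 12 leading genes lower in CX (bottom) in each of the 11 libraries, by region. In all 26 genes the 2 CX circles lie outside the range of the other libraries, which is part of the rule that chose them.

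Aqp1, the water channel of choroid plexus epithelium that is also made by some astrocytes, fell furthest in the cortex and was 1 of the 2 genes past the adjusted threshold. It had 2.51 and 6.13 in CX_1 and CX_2 against 135–209 (OB), 89.5–234 (HC) and 108–400 (BS) (log2 difference -5.13, SE 0.46, limma adjusted p = 0.00054). The gene lies at chr6:55336299-55348555 of GRCm38, and the groups did not overlap. Ttr, the transthyretin made by choroid plexus, had values of 46376 to 221911 in the HC and BS. In the OB Ttr was at 5.39 to 16.6 while Aqp1 was at 135 or more, and in the cortex Ttr was at 4204 and 1323 while Aqp1 was near the floor. None of the 18 choroid plexus markers had a positive difference, and Aqp1 was the only DEG among them. The call was kept in all 25 alternatives, with a limma adjusted p of 0.0661 without CX_1 and 0.00809 without CX_2.

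Sulf1, an extracellular sulfatase that trims heparan sulfate and so alters growth factor signalling, was the other. It had 49.0 and 36.8 in the cortex against 226–463 (OB), 410–1183 (HC) and 455–864 (BS) (-3.62, SE 0.51, limma adjusted p = 0.04485). The gene lies at chr1:12692197-12861192 of GRCm38. All 9 other libraries exceeded both cortex values by more than 4-fold. Its limma adjusted p was 0.397 without CX_1 and 0.286 without CX_2, at differences of -3.82 and -3.41.

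Several of the other leading lower genes encode secreted or matrix proteins. Thbs2, a thrombospondin through which astrocytes promote synapse formation, had 2.51 and 15.3 in the cortex against 328–399 (OB), 20.2–30.0 (HC) and 208–351 (BS) (-4.19, SE 1.15, limma adjusted p = 0.2594). The HC was thus nearest to the cortex, and the difference from the HC alone was -1.84. A2m, the protease inhibitor alpha-2-macroglobulin, had 40.2 and 52.1 against 118 to 2244 (-3.38, SE 0.77). Adamtsl1, an ADAMTS-like matrix protein, had 1.26 and 12.3 against 18.0 to 104, and Fndc1, a fibronectin type III domain protein, 7.54 and 7.67 against 10.5 to 365. Scube3, a secreted signalling protein, had 1 read in the cortex libraries together and 311 in the others, a ratio of 0.0227 with a 95% counting interval of 0.000576 to 0.127.

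Emb, an immunoglobulin-family membrane protein related to basigin, had 25.1 and 4.60 in the cortex against 29.2–74.3 (OB), 244–679 (HC) and 335–1079 (BS) (-4.25, SE 1.16). The order of its regions was that of the choroid plexus sums, except that the cortex lay under the OB, and the part of that epithelium was not tested. Cd55, a regulator of complement, had 10.05 and 3.07 against 34.1 to 228 (-3.78, SE 0.64, limma adjusted p = 0.1007, DESeq2 adjusted p = 0.000224). Tlr2, an innate immune receptor, had 0 and 6.13 against 14.5 to 53.0 (-3.36, SE 0.69), and Ldb3, a Z-disc protein of muscle, 0 and 4.60 against 8.08 to 56.8 (3 reads in the cortex against 329, ratio 0.067, 95% counting interval 0.0138 to 0.196). Cd55 kept its call in all alternatives run.

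Dnah11, an axonemal dynein heavy chain of motile cilia, had 1.26 and 7.67 in the cortex against 34.1 to 182 (-3.87, SE 0.62, limma adjusted p = 0.0929). Hydin, a protein of the ciliary central pair, had no cortex read against 0.789 to 7.003 in the OB and 9.13 to 84.1 in the HC and BS, and was at least 10.1-fold lower than the mean of the 9 libraries. Its call was lost in 12 of 25 alternatives, edgeR among them. Both are among 11 tested ependymal markers, where 1.74% of all genes tested were called lower. At an unadjusted limma p under 0.05, 4 of the 11 were lower and none higher. DESeq2 called 4 lower and edgeR 1. The cortex sum without Dnah11 and Hydin lay within the range of the other libraries, of which OB_3 was lowest, as given above. Dnah11 overlaps Cdca7l on the genome in a count whose use of strand is not given in the sources used here. Foxj1, the transcription factor of motile ciliated cells, had 7.54 and 33.7 against 26.4 to 320 and did not pass. Of the 12 leading lower genes, 6 kept the call without CX_1 (log2 differences of -5.36 to -1.95 over the 12) and 9 without CX_2 (-5.64 to -3.06).

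Cholesterol synthesis genes lay above those of the other regions in nearly every member. Of 25 genes listed, 24 were tested, 22 had a positive difference and 14 lay above all 9 other libraries, against 5.02% of all genes tested. The median difference was 0.71 on the log2 scale, where the median of all genes tested was -0.03. As DEGs 5 were higher and none lower, or 20.8% of those tested beside 1.02% of all genes called higher. At an unadjusted limma p under 0.05, 15 were higher and none lower, DESeq2 called 6 higher and none lower, and edgeR 4 and none. The summed value of the list was 18430 and 19140 in the cortex against 8861 to 15820 elsewhere. The list's count was 4 with the Rn45s-free scaling, 1 without CX_1, 2 without CX_2 and 9 without BS_2.

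The called genes sit on the squalene and lanosterol part of the pathway. Fdft1, squalene synthase, had 1751 and 1625 in the cortex against 626 to 1202 in the others (1.03, SE 0.24, limma adjusted p = 0.2100, DESeq2 adjusted p = 0.0328). It overlaps Ctsb on the genome. Lss, lanosterol synthase, had 717 and 698 against 302 to 569 (0.86, SE 0.23, limma adjusted p = 0.2497). Cyp51, the lanosterol demethylase, had 1471 and 1516 against 586 to 1509, so that BS_2 reached the cortex level (0.88, SE 0.29), and it lost the call under edgeR and DESeq2.

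Msmo1, the methylsterol monooxygenase, was the largest of these, at 1323 and 1240 against 434 to 924 (1.15, SE 0.26, limma adjusted p = 0.1993, DESeq2 adjusted p = 0.0270). Hsd17b7, the 3-ketosteroid reductase that acts after it, had 248 and 310 against 99.9 to 192 (1.01, SE 0.27). For both genes every other library lay under the cortex. Without CX_1 Msmo1 no longer passed, with a difference of 1.10.

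Most members that did not pass lay in the same direction. Hmgcs1, which makes hydroxymethylglutaryl-CoA, was the most abundant, at 4181 and 5067 against 1972 to 3861 (0.77, SE 0.28). Sqle, which epoxidises squalene, had 828 and 923 against 357 to 823. Tm7sf2, a sterol reductase, was at 59.0 and 70.5 against 14.7 to 52.1. In these 3 genes the groups did not overlap either. Fdps and Ebp were the 2 with a negative difference, at 141 and 207 against 103 to 277 and at 12.6 and 13.8 against 7.90 to 68.4. Srebf2, the transcription factor that drives the pathway, differed by 0.38 (SE 0.20), and Insig1, which holds it back when sterols are plentiful, by 0.70 (SE 0.29).

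**Figure D4:**
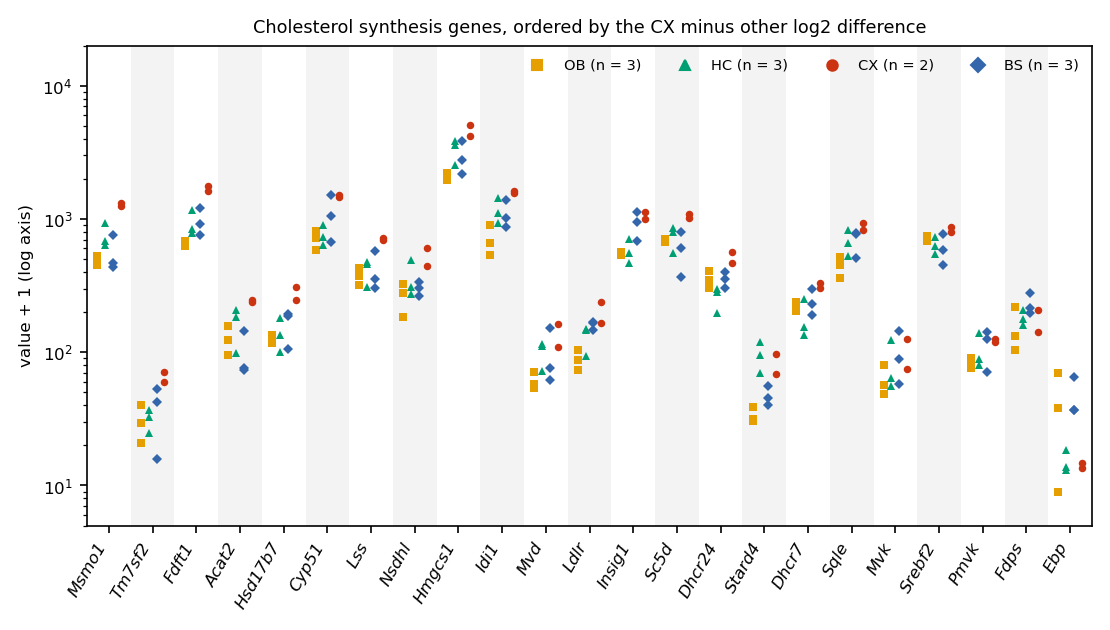
Values (plus 1, log axis) of 23 cholesterol synthesis genes in each library, ordered from the largest to the smallest cortex difference. The CX circles lie at or near the top of each column for most genes, with Fdps and Ebp at the right as the exceptions.

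The promoters of this list shared a short sequence. RefSeq promoter windows of GRCm38.p6, from 250 bases before to 50 after the start, were at hand for 17 of the 24 tested genes and 11025 of all 13875. CCAAT, read on both strands (as ATTGG on the other) and counted where any window of a gene held it, occurred in 16 of the 17 (94.1%) and in 42.7% of all genes tested. It was searched after the values had been seen. The sterol regulatory element core TCACNCCAC was in 1 of the 17 (5.88%) and in 1.47% of all. Among all higher DEGs with a window, 45.3% held CCAAT, so that the share in the list was not that of the DEGs. A match of letters is a description and not a bound site. The windows of the called enzymes that had one, and of Hmgcs1, are shown from 5′ to 3′ on the strand of the gene, with CCAAT or ATTGG in capitals and, in Hmgcs1, also the sterol element:
Msmo1, chr8:64733529-64733828, minus strand: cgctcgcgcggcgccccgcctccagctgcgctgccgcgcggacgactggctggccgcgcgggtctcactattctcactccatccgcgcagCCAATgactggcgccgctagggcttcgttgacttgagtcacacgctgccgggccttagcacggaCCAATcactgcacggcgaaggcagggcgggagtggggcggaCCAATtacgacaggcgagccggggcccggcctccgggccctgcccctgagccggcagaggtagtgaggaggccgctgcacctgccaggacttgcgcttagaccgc
Hsd17b7, chr1:169969156-169969455, minus strand: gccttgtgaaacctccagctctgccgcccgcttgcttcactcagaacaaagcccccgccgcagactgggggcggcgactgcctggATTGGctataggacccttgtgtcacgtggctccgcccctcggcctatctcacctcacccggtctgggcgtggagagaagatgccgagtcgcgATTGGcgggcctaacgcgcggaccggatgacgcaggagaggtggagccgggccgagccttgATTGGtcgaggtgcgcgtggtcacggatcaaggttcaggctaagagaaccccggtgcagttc
Cyp51, chr5:4104648-4104947, minus strand: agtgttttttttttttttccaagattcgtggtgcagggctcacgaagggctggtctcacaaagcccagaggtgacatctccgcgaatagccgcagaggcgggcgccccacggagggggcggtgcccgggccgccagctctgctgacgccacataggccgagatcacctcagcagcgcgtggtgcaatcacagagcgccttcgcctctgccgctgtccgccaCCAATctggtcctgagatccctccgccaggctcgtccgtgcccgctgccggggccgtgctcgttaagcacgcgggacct
Lss, chr10:76531355-76531654, plus strand: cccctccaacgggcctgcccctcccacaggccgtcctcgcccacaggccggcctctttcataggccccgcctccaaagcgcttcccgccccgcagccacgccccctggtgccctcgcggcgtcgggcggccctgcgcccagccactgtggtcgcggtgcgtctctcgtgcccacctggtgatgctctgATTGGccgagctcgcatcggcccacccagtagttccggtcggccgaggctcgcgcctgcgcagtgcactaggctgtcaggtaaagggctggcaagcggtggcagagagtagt
Hmgcs1, chr13:119690101-119690400, plus strand: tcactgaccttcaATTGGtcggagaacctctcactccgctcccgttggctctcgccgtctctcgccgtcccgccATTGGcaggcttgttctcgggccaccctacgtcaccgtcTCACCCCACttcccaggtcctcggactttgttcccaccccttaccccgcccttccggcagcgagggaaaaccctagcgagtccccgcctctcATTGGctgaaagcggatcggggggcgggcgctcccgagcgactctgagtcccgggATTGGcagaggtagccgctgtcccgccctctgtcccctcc
Msmo1 and Hsd17b7 held 3 matches each, Hmgcs1 4, and Cyp51 and Lss 1 each.

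Of 24 genes tested of GABA reception, transport and synthesis, 3 were higher in the cortex (12.5%, beside 1.02% of all genes) and none lower, and the 3 encode receptor subunits. Gabbr2, a subunit of the metabotropic GABA-B receptor, had 1538 and 1671 against 221–238 (OB), 313–481 (HC) and 309, 1430 and 766 (BS_1 to BS_3) (2.03, SE 0.56, limma adjusted p = 0.2653). Gabbr1, its partner subunit, had 4909 and 5348 against 949 to 4305 (1.42, SE 0.46, limma adjusted p = 0.3470). In both genes BS_2 came near the cortex and the other BS libraries did not. Gabrg1, a gamma subunit of the ionotropic GABA-A receptor, had 1995 and 1982 against 554 to 1609 (0.99, SE 0.33). Gabbr1 and Gabrg1 lost the call under edgeR. Without CX_1 and without CX_2 the call of Gabbr2 was lost as well.

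The transporters and enzymes of the same list did not separate the cortex. Slc6a11, a GABA transporter of astrocytes, had 7206 and 6412 in the cortex, 3232 to 5561 in the HC, 26056 to 32499 in the OB and 7477 to 20819 in the BS. Abat, which degrades GABA, had 6554 and 5550 against 3133 to 9913, and Maob, an amine oxidase through which astrocytes can make it, 1116 and 1013 against 357 to 1132.

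Of 36 nuclear receptor genes tested, 2 were higher and 1 lower in the cortex (8.33%, beside 2.77% of all genes). Pgr, the progesterone receptor, had 80.4 and 98.1 in the cortex against 5.53–10.9 (OB), 16.4–35.6 (HC) and 14.7–21.0 (BS) (2.45, SE 0.61, limma adjusted p = 0.2409, DESeq2 adjusted p = 0.0404). The gene lies at chr9:8898900-8968611 of GRCm38. All 9 other libraries lay under the cortex, the nearest being HC_1. Against each region alone the differences were 3.34 from the OB, 1.69 from the HC and 2.31 from the BS, and that from the HC did not pass. With either cortex library left out the call was lost, at differences of 2.59 and 2.30. Neither of a further pair of steroid receptors passed: Nr3c1, the glucocorticoid receptor, had 1677 and 1559 against 708 to 1574, and Esr1, an oestrogen receptor, 0 and 1.53 against 0 to 42.1.

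The promoter window of Pgr is shown because the gene stood apart among the steroid receptors; its capitals mark the single ATTGG. The steroid receptor core ACANNNTGT, searched on both strands, was not in this window, and was in 5.66% of the higher DEGs with a window and in 5.14% of all genes tested.
Pgr, chr9:8899583-8899882, plus strand: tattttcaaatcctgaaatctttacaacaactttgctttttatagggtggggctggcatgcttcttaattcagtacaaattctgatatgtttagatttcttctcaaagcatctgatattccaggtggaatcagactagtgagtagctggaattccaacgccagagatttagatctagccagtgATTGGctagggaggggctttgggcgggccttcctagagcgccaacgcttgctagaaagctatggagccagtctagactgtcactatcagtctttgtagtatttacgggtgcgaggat

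Rorb, an orphan receptor known from neurons of a middle cortical layer and also made by astrocytes, was the most abundant called nuclear receptor, at 8766 and 8350 against 1428 to 6149 (1.30, SE 0.43, limma adjusted p = 0.3470). It lost its call in 16 of 25 alternatives. Nr2f2, a COUP transcription factor of caudal and ventral telencephalon, was lower, at 172 and 176 against 297 to 724 (-1.22, SE 0.29, limma adjusted p = 0.2093, DESeq2 adjusted p = 0.0226). All 9 others lay above both cortex values, and the call was lost only without CX_1. Nr2f1, its paralogue, had 322 and 261 against 50.5 to 466 and did not pass. Rara, a retinoic acid receptor, had 155 and 138 against 31.2 to 96.7 and did not pass either.

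**Figure D5:**
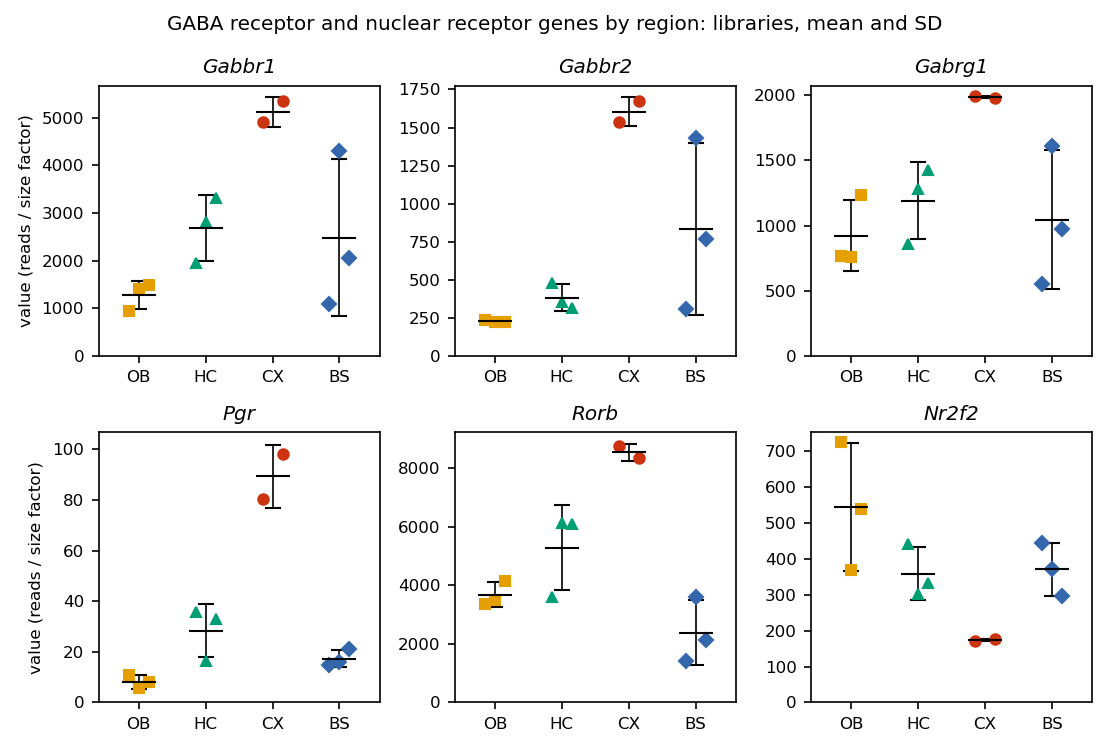
Values of 3 GABA receptor genes (top) and 3 nuclear receptor genes (bottom) in each library by region, with bars at the mean and error bars of 1 SD (linear axes from 0). The CX libraries lie highest in all panels except that of Nr2f2, where they lie lowest, and BS_2 is the highest BS library for the 3 GABA receptor genes.

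Few transcription factors of the telencephalon told the cortex from the other regions. Of 24 tested, 1 was higher (Tbr1) and 1 lower (Nr2f2), or 8.33% beside 2.77% of all genes. Emx2, a dorsal telencephalic homeobox gene, had 492 and 524 against 334–550 (HC) and 41.3–85.1 (OB). Lhx2 lay at 2222 and 2064, above the 1060 to 1787 of the OB and HC and the 2.10 to 8.01 of the BS, and did not pass (3.41, SE 2.52). Otx1 lay likewise above all others, at 246 and 219 against 7.36 to 156. Dmrt3 and Sp8 set other telencephalic regions apart from the cortex: Dmrt3 had 2.51 and 3.07 against 44.8 to 65.6 in the HC, and Sp8 0 and 4.60 against 242 to 278 in the OB.

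Midbrain and hindbrain transcription factors were low in the cortex, with a median difference of -1.51 over 20 tested (-1.58 with the 10 genes without a cortex read held at the floor), but none passed. At an unadjusted limma p under 0.05 3 were lower, as by DESeq2, and edgeR called none. The list was low in the HC as well, with sums of 953 to 977 beside 1121 and 1009 in the cortex. The OB had 1553 to 1919 and the BS 1482 to 1829. Without Tcf7l2, the largest member, the list summed to 283 and 314 in the cortex against 336 to 1378, with HC_2 lowest of the others. Of 8 astrocyte genes with known layer or regional patterns none passed either, with 1 higher at an unadjusted limma p under 0.05 and none by DESeq2 or edgeR. Chrdl1, an AMPA receptor-promoting factor of upper cortical layers, had 2618 and 2277 in the cortex and 2719–3111 in the OB, but 262–406 (HC) and 4.01–6.31 (BS) in the other regions. Mfge8, a phagocytic opsonin, had 3336 and 2672 against 188 to 2194, and the groups did not overlap.

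Glutamate receptors differed by member. Of 34 genes of glutamate reception, uptake and recycling, none was called higher and 2 lower (5.88%, beside 2.77% of all genes). Grm5, the metabotropic receptor of young astrocytes, had 140 and 167 against 204 to 639 (-1.07, SE 0.35, limma adjusted p = 0.3470), and lost the call under edgeR. Grm8 had 1.26 and 6.13 against 2.74 to 64.1 (-2.81, SE 0.84). Grm3, the main metabotropic receptor of adult astrocytes, lay the other way, at 5847 and 5288 against 216 to 3020, but did not pass (2.20, SE 0.76). Gria1, an AMPA receptor subunit, had 274 and 302 against 314 to 4010, below every other library, and did not pass.

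Among Wnt genes 1 of 41 tested was higher and 2 lower (7.32%, beside 2.77% of all genes). Sfrp1, a secreted Wnt antagonist, had 1591 and 1268 against 209 to 1170 (1.95, SE 0.50, limma adjusted p = 0.2409), with BS_1 nearest to the cortex. The receptors Fzd6 and Lrp5 were lower, at 79.2 and 99.7 against 122 to 188 (-0.75, SE 0.22) and at 91.7 and 104 against 120 to 216 (-0.76, SE 0.25). Dkk3, a Dickkopf family member, reached 4166 and 4138 against 739 to 2132 in the OB and HC and 54.7 to 108 in the BS, and did not pass. Gli3, the hedgehog pathway repressor, was higher at 1501 and 1427 against 300 to 1128 (1.25, SE 0.40), and lost the call in 11 of 25 alternatives, among them edgeR, the Rn45s-free scaling and each CX library left out. The co-receptor Boc was lower at 61.6 and 70.5 against 85.8 to 246 (-1.19, SE 0.37). Dll4, a Notch ligand of endothelial cells, had 1.26 and 1.53 against 3.15 to 68.7, from 2 cortex reads, and lost the call under edgeR. The 16 endothelial and mural markers, which do not include it, summed to 1295 and 3223, within the 1042 to 6240 of the other libraries.

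Factors acting on synapses went both ways, with 1 of 25 higher and 1 lower (8%, beside 2.77% of all genes). Gpc6, a glypican by which astrocytes recruit AMPA receptors, had 1494 and 1420 against 187 to 1008 (1.70, SE 0.46, limma adjusted p = 0.2497), while Thbs2, given above, was lower. Sparc, a matricellular antagonist of synapse formation, had 4636 and 5691 against 7415 to 44108, below all others, and did not pass. Vcan, a hyaluronan-binding proteoglycan, was the only call among 14 matrix genes (2.77% of all genes were called), at 417 and 377 against 177 to 301 (0.69, SE 0.22).

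The remaining lists held few calls, where 2.77% of all genes tested were called. Dbp, a clock output factor, was higher at 77.9 and 98.1 against 18.9 to 50.5 (1.36, SE 0.39) and with Rorb made 2 of 20 clock genes. It overlaps Sphk2 on the genome, as Lss, Nr2f2, Gfra1, Dll4 and Hydin overlap listed genes of lesser note, so that their reads cannot be told apart without strand. Single genes were lower among the cadherins (Cdh3, 1.26 and 3.07 against 11.05 to 114), the FGF pathway (Fgf10, no cortex read, at least 7.81-fold lower), the potassium channels (Kcnj8, 0 and 4.60 against 4.85 to 21.0), the transmitter receptors (Chrnb4, no cortex read, at least 15.9-fold lower, with 1 BS library also at 0) and the ribosomal proteins (Rps7, 479 and 448 against 580 to 878). The calls of Kcnj8 and Rps7 were lost under edgeR, and that of Kcnj8, which is also a mural cell marker, under DESeq2 and in 16 of 25 alternatives.

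Other lists held no call, where 2.77% of all genes tested were called. Among 28 reactive astrocyte genes 5 had a positive difference and the median was -0.74, with 4 lower at an unadjusted limma p under 0.05, 4 lower by DESeq2 and none by edgeR. Serpina3n, a marker of reactive astrocytes, had 31.4 and 56.7 in the cortex against 336–559 (OB) and 35.6–131 (HC). Among 31 immediate early and dissociation genes the median was -0.32, with 1 higher and 2 lower at that unadjusted p, 1 in each direction by DESeq2 and none by edgeR. Respiratory chain genes (80, median -0.12), glycolysis and glycogen genes (25, median 0.11), lipid export genes (15, median 0.39) and genes of the BMP and TGF-beta pathway (42, median -0.10) had 2, 2, 3 and 1 members higher and 5, 0, 1 and 1 lower at an unadjusted limma p under 0.05. In these 4 lists edgeR called none, and DESeq2 called 1 lipid export gene and 2 BMP and TGF-beta genes lower.

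A further 3 lists were drawn up after the values had been seen, so their counts only describe. Of 22 meningeal fibroblast and fibrous matrix genes, 8 were called lower and none higher (36.4%, beside 1.74% of all genes). Ogn, osteoglycin, had 26.4 and 32.2 against 63.6 to 353, Pcolce, a procollagen processing enhancer, 6.28 and 18.4 against 31.5 to 414, and Dcn, decorin, 2.51 and 53.7 against 52.8 to 1667. The list summed to 657 and 856 in the cortex against 1054 to 10360 elsewhere, and without the 8 called members to 582 and 679 against 630 to 7570. Col1a1 and Lum, which define fibroblasts, overlapped the other libraries and did not pass, with 21.4 and 18.4 against 13.2 to 87.3 for Col1a1 and 5.03 and 12.3 against 4.77 to 283 for Lum. How much of the difference came from fibroblasts was not tested.

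Of 31 innate immune genes, 7 were called lower and none higher (22.6%, beside 1.74% of all genes). Ifih1, a sensor of double-stranded RNA, had 113 and 84.3 against 164 to 404, Ddx58, another, 56.5 and 70.5 against 101 to 375, and Myd88, the adaptor of Toll-like receptors, 10.05 and 7.67 against 18.1 to 46.1. In these 3 genes both cortex values lay below all others. Microglial marker sums did not move with them, as given above.

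Of 29 synaptic genes, 5 were called higher and none lower (17.2%, beside 1.02% of all genes). Dlg2, a postsynaptic scaffold, had 947 and 1230 against 250 to 697, Cplx2, complexin 2, 1011 and 1454 against 230 to 829, and Vamp2, synaptobrevin 2, 1222 and 1208 against 506 to 908. Stx1a, syntaxin 1A, had 21.4 and 35.3 against 0 to 10.3. The groups did not overlap in any of the 4. The neuron marker sums of 7618 and 9416 (3034 and 3848 without Camk2a) stood beside them. Whether neuronal RNA accounts for these synaptic genes was not tested.

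The regions differed in how far they stood from the cortex. Against the OB alone the DEG rule was met by 1120 genes (8.07%), against the HC by 651 (4.69%) and against the BS by 1868 (13.5%). These comparisons share the cortex libraries. Of the 142 higher DEGs, 99 passed against the OB, 65 against the HC and 117 against the BS, and for 92 the HC mean was nearest to that of the cortex. Of the 242 lower DEGs, 143 passed against the OB, 143 against the HC and 187 against the BS, with the OB nearest for 103, the HC for 95 and the BS for 44. The rule was met against each of the 3 regions in the same direction by 119 genes (0.858%), 46 higher and 73 lower, of which 110 were among the 384. Car8, Rpe65, Crym, Gfra1, Lama3 and Lypd6 did so among the leading higher genes, and 11 of the 12 leading lower genes did, all but Fndc1.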

How the data were processed

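RNA of FACS-sorted eGFP+ astrocytes was made into libraries by the authors with a total RNA kit that removes ribosomal RNA, sequenced in paired ends, mapped to mm10 with STAR 2.5.0a, counted on UCSC transcripts and normalized with DESeq2 1.20.0. The deposited unit is a normalized signal, each count divided by the size factor of its library, and read counts were recovered, since every value above 0 (100%, tolerance 0.01 reads) was a whole number of steps worth 1 read. Whether counting used strand is not given in the sources used here. Intervals and floors cover counting error only.

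CX was compared with the 9 other libraries by two-sided limma tests (version 3.58.1, R 4.3.3) that modelled the trend of the variance with the mean. Values were taken as log2(value + 1), and low genes were removed with filterByExpr from edgeR applied to recovered reads. These fold changes understate those of low genes. The thresholds for DEGs followed the study (p of 0.01 before adjustment, fold change of 1.5, value of 5). Adjusted p-values follow Benjamini and Hochberg. Members, lists and tests were chosen with earlier results of these data known. Genes named are those under an adjusted p of 0.05, the 14 highest and 12 lowest non-overlapping DEGs with a mean value of at least 20, list members that were DEGs, and the most abundant other members. Further list members given by their values, 3 of the lists and the CCAAT search were chosen after values were seen. Alternatives were edgeR 4.0.16 and DESeq2 1.42.0 on recovered reads, other filters, pseudocounts, scalings and poolings, a replicate block and leaving out samples. The pipeline was tested on simulated data. Some genes that enter the counts are not reported here by name. Coordinates of genes and of promoters come from RefSeq on GRCm38.p6.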

Additional observations from a re-analysis of the deposited data

How the results depend on the processing

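The cause of the changes below was not tested. The 384 DEGs (142 higher, 242 lower, 2 under an adjusted p of 0.05) became 591 with DESeq2 (424 lower, 123 adjusted), 1071 with a mean for each region (479 higher, 592 lower, 574 adjusted), 119 when the rule had to hold against each region (46 higher, 73 lower, 5 adjusted), 231 without the 3 libraries with Y-linked reads (135 lower, 1 adjusted) and 2 with an adjusted p in place of the unadjusted one. Rescaling to the reads without Rn45s gave 61 higher and 379 lower, and edgeR with relative log expression factors gave 159 lower. The adjusted count was 4 without a filter, 7 with a pseudocount of 0.25, 1 with a pseudocount of 4 and 1 without a trend. Leaving out each sample in turn gave 138 to 464 DEGs (30 to 182 higher, 108 to 282 lower) and 0 to 14 under the adjusted threshold. The lowest DEG count came without CX_1. Correlations did not settle whether the replicate numbers pair the samples. The correlation of deviations exceeded 0.1 in 3 of 15 same-numbered pairs (range -0.16 to 0.25), and 7 of 11 samples correlated best with their own number. The deviations of CX_1 and CX_2 from their shared mean mirror each other, so their correlations are equal with opposite signs. With the replicate block 308 DEGs were called, 1 of them under the adjusted threshold. No named gene reversed its direction in any alternative run, and of the 56 named DEGs 6 kept the call in all 25 (Aqp1, Car8, Cd55, Dnah11, Gfra1 and Sulf1), while 13 lost it only where a CX library was left out. Depth limits the lower DEGs, 52 of which had 3 or fewer CX reads.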
